A study of Mus musculus with 4 samples.

Results

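Genes of the proteasome and of the ubiquitin system were compared between eosinophils of the pleural cavity and eosinophils of the bone marrow. They were taken by symbol from the genes the authors list as different between the tissues: proteasome subunits and chaperones, Uba, Ube2, Ube3, Usp, Otu, Trim, cullin and F-box genes and ubiquilins, without Usp18. The rule found 83 of 5807 listed genes. Wild-type (WT) mice aged 6 to 8 weeks had received LLC cells, a Lewis lung carcinoma line that produces malignant pleural effusion in mice, and cells of both tissues were sorted on day 2. Bulk RNA-seq was done on 2 libraries per tissue, and the labels do not say whether these came from separate or pooled animals. The labels and the methods place the bone marrow in LLC-injected mice, whereas the study's text elsewhere calls these cells naïve, so whether the marrow donors carried tumor cells is not certain. The sort differed between tissues. Bone marrow cells were enriched with F4/80 beads and gated as CD45-positive, SiglecF-positive cells of high side scatter. Pleural cells were enriched with CD45 beads, and their gate also required CD11b and F4/80 and left out CD11c-positive and Gr1-high cells.

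Ubiquitin is a small protein that E1, E2 and E3 enzymes attach in turn to a target, the E3 ligase choosing the target, and that deubiquitinases remove again. The proteasome is a barrel of alpha and beta rings that degrades tagged proteins, fed by a regulatory particle or by activator rings. In immune cells exposed to interferon, the catalytic beta subunits Psmb5, Psmb6 and Psmb7 are replaced by Psmb8, Psmb9 and Psmb10, and this immunoproteasome cuts peptides suited to MHC class I.

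Only the authors' mean of estimated reads per tissue was used, so no standard deviation, depth per library or test could be given for any gene, and the differences below are a description. All listed genes have a q-value under 0.05 in the authors' own test of the same contrast, so every member had to differ, and a gene that is not listed has no direction here. The study's text also names a cut on the fold change, which was not visible in the mean reads. Around a log2 difference of 0 the listed genes leave only a gap from -0.47 to 0.18, narrower than a 2-fold cut in both directions would leave, and 48 of the 83 members lie within 2-fold. The mean reads of the listed genes summed to 15947438 for the pleural cavity and to 11762543 for the bone marrow, which is not a library total. A log2 difference is that of mean reads plus 1, pleural cavity over bone marrow, after scaling to these sums. Fewer cells of a type and less RNA per cell cannot be told apart in such bulk libraries.

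Most of the listed members were higher in the pleural cavity, but by modest amounts, whereas the lower members spread to far larger differences. Higher values were found for 51 members (61.4%), beside 42.5% of all listed genes, and lower values for 32. By over 2-fold, 12 members (14.5%) were higher, beside 16.0% of all listed genes. In the other direction 23 members (27.7%) were lower by over 2-fold, beside 50.5% of all listed genes. The median log2 difference was 0.45 over the members and -1.02 over all listed genes. The gap in the medians was not seen among genes with at least 500 mean reads in a tissue, where they were 0.47 over 60 members and 0.45 over 3414 listed genes. Of these, 71.7% of the members and 62.3% of the listed genes were higher.

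The listed members were 25.6% of the 324 annotated protein-coding genes that match the rule, beside 25.7% of all annotated protein-coding genes, and the shares listed in each role below are to be read against that value.

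The direction of members with small differences depended on the scaling. The split of 51 higher and 32 lower members was found with the sums of listed reads, without scaling, with TMM factors and with the 20 most abundant genes left out of the sums. Of all listed genes 42.5% were higher with each of these. The split was 53 and 30 with median of ratios factors, beside 44.1% of all listed genes higher. It was 42 and 41, beside 35.7% higher, when the median was set to 0 over 1524 abundant genes, those reaching 1000 mean reads in each tissue, a reference chosen after seeing the data and called the abundant-gene reference below. Without scaling, 29 members were higher and 22 lower by over 2-fold (34.9% and 26.5%, beside 30.4% and 43.2% of all listed genes). With median of ratios factors these were 50 and 20 (60.2% and 24.1%, beside 41.0% and 39.7%), and with the abundant-gene reference 5 and 32 (6.02% and 38.6%, beside 9.01% and 57.3%). Across these scalings the median of all listed genes ran from -1.46 to -0.33.

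**Figure D1:**
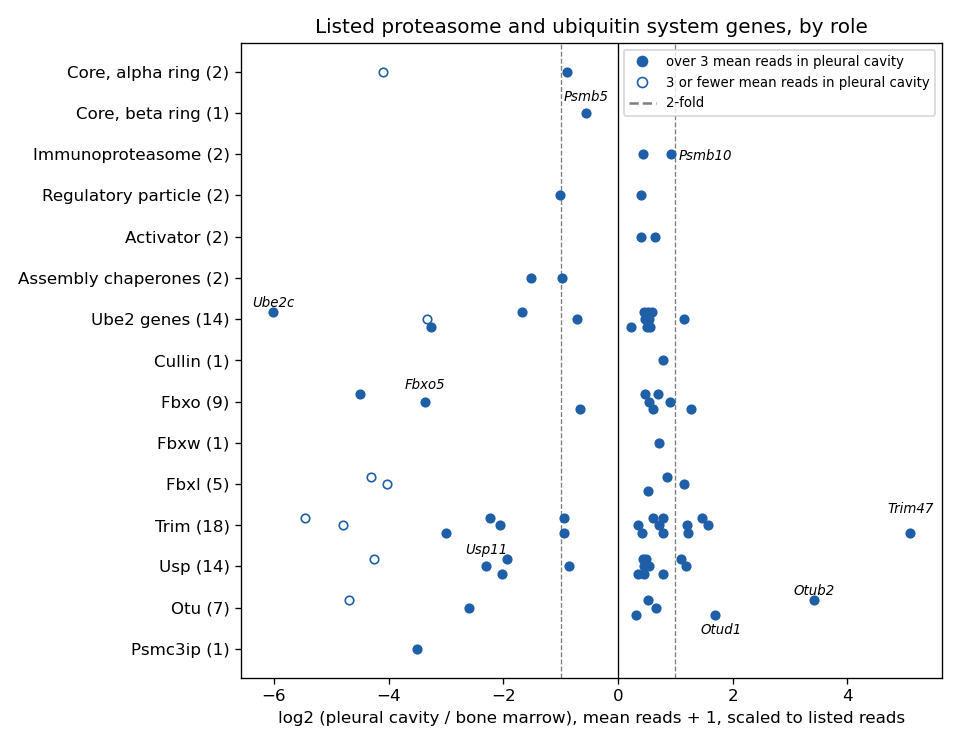
Each point is 1 of 81 of the listed members, placed by its log2 difference (pleural cavity over bone marrow, x axis) and its role (y axis, with the number of genes), and open points had at most 3 mean reads in the pleural cavity. The higher genes lie from a log2 difference of 0.22 upward, most of them short of 2-fold, with Trim47 and Otub2 far to the right, while the lower genes reach -6.01 for Ube2c, and 9 genes right of 0 fall left of it with the abundant-gene reference and 2 genes left of 0 fall right of it with median of ratios factors.

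The sorted cells carried eosinophil transcripts in both tissues, with a different balance of surface and granule genes. Of 8 eosinophil markers 7 were listed, and Il5ra was not. Ccr3, the eotaxin receptor, had a mean of 67556.5 reads in the pleural cavity and 17177.5 in the bone marrow (log2 1.54). Siglecf, used in the sort, had 21371 and 7105.5 (log2 1.15). The granule protein genes stood the other way, with Prg2 at 1482 and 555404 mean reads. The 7 markers summed to 8416 reads per 1000000 listed reads in the pleural cavity, led by Ccr3, and to 71797 in the bone marrow, led by Prg2.

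Markers of other cells also differed between the tissues. All 11 neutrophil and granulocyte precursor markers were listed and lower in the pleural cavity, where they took 0.229% of the listed reads, led by Retnlg, against 11.5% in the bone marrow, led by Ngp. All 5 dividing cell markers were lower as well, at 42.0 reads per 1000000 listed reads in the pleural cavity, led by Mki67, and 1255 in the bone marrow, led by Top2a. The 3 progenitor markers (27.1 and 407, led by Kit and Myb) and the 5 basophil and mast cell markers (3.79 and 914, led by Fcer1a and Prss34) were lower too. None of the genes of these lists was at 0 in either tissue. Of 8 macrophage and monocyte markers 6 were listed, 4 higher in the pleural cavity and 2 lower. The 6 summed to 1918 reads per 1000000 listed reads there, led by Csf1r, and to 2464 in the bone marrow. Ly6c2 made up most of the bone marrow sum, with 1879 there and 38.2 in the pleural cavity. The other lower gene was Mrc1 (log2 -1.27). The higher genes were Csf1r (log2 1.94), C1qb (1.77), Cd14 (1.51) and C1qa (0.91). Ccr2 was not listed.

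The remaining lists held few listed genes. None of 4 dendritic cell markers was listed, 1 of 4 B cell markers was (Ms4a1, 23.0 and 9.10 reads per 1000000 listed reads) and 3 of 8 T and NK cell markers were (9.97 and 903, led by Nkg7 in both tissues). Of 7 erythroid markers 2 were listed (0.0941 and 26.2, led by Car1), and the globin genes were not. Of 7 epithelial and mesothelial markers only Krt18 was listed (120 and 44.0), and Epcam, Krt8 and Krt19 were not. The methods describe the sorted cells as almost entirely pure and as checked by Wright-Giemsa staining. The part of all these cell types in the differences described here was not tested.

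The listed proteasome genes went both ways. Of 49 annotated proteasome genes 11 were listed (22.4%), 5 higher and 6 lower in the pleural cavity. That split became 6 and 5 with median of ratios factors and 2 and 9 with the abundant-gene reference. None was higher and 3 were lower by over 2-fold, which became 5 and 1 with median of ratios factors, 2 and 2 without scaling and 0 and 6 with the abundant-gene reference. Their median log2 difference was -0.56, which was 0.13 with median of ratios factors. None of the 6 ATPase genes of the regulatory particle was listed, nor the inhibitor gene Psmf1.

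The listed immunoproteasome subunits were higher in the pleural cavity, Psmb10 with every scaling tried and Psmb8 with all but the abundant-gene reference. Psmb8, which takes the place of Psmb5 (chr17:34197721-34201454, GRCm38, plus strand), had 9880 mean reads in the pleural cavity and 5383.5 in the bone marrow, a log2 difference of 0.44 that was -0.01 with the abundant-gene reference. Psmb10, which takes the place of Psmb7 (chr8:105935735-105938444, minus strand), had 4715.5 and 1832.5 (log2 0.92). Across the scalings this ran from 0.48 with the abundant-gene reference to 1.61 with median of ratios factors. Psmb9, the remaining subunit of the set, was not listed.

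Psma6 and Psmb5, the listed subunits of the standard core, were lower, Psmb5 with all scalings but median of ratios factors. Psmb5, the chymotrypsin-like subunit (chr14:54614119-54618022, minus strand), had 2542 mean reads in the pleural cavity and 2768.5 in the bone marrow, a log2 difference of -0.56 that was 0.13 with median of ratios factors. Psma6 of the alpha ring had 2147 and 2946 (log2 -0.90), and it stayed lower with every scaling tried. Psma8, an alpha subunit known from the testis, had 1.5 and 30.5. It was 27.6-fold lower, with an exact 95% interval of 9.0 to 137 that covers counting error only.

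Ratios between genes of the same tissue do not depend on the scaling. For the pairs shown, those of immune to standard subunits were higher in the pleural cavity. These pairs were set from genes already seen to be higher or lower, so the direction of the ratios was known beforehand and is no further test. Of 7 annotated genes of the standard beta ring only Psmb5 was listed, so Psmb10 could not be set against Psmb7. Per kilobase of the longest annotated transcript, the ratio of Psmb8 to Psmb5 was 0.917 in the bone marrow and 1.83 in the pleural cavity, a factor of 2.0. The same ratio of Psmb10 to Psmb5 went from 0.454 to 1.27, a factor of 2.80. The factors do not depend on length, but the order of the genes within a tissue does, since the plain read ratio of Psmb8 to Psmb5 was 1.94 in the bone marrow and 3.89 in the pleural cavity. Against Psma6, the ratio of Psmb8 per kilobase was 0.999 in the bone marrow and 2.51 in the pleural cavity. The spread of these ratios between libraries is unknown.

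The other proteasome genes were an activator pair, subunits of the regulatory particle and chaperones. Psme2, a subunit of the interferon-inducible activator, had 5528 mean reads in the pleural cavity and 3098 in the bone marrow (log2 0.40, and -0.05 with the abundant-gene reference). Its near copy Psme2b had 499.6 and 236 (log2 0.64). Both had fractional reads, which arise where reads are divided between similar genes, so neither value stands alone. Their partner gene Psme1 was not listed.

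In the regulatory particle, Psmd1, a scaffold of its base, had 1408.5 and 2104 mean reads (log2 -1.02). Psmd10, the assembly chaperone gankyrin, had 1671.5 and 928.5 (log2 0.41, and -0.04 with the abundant-gene reference). Both listed chaperones of the alpha ring, which work as a pair, were lower with every scaling tried. Psmg1 had 610 mean reads in the pleural cavity and 884 in the bone marrow (log2 -0.97). For Psmg2 the values were 186 and 391 (log2 -1.51).

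**Figure D2:**
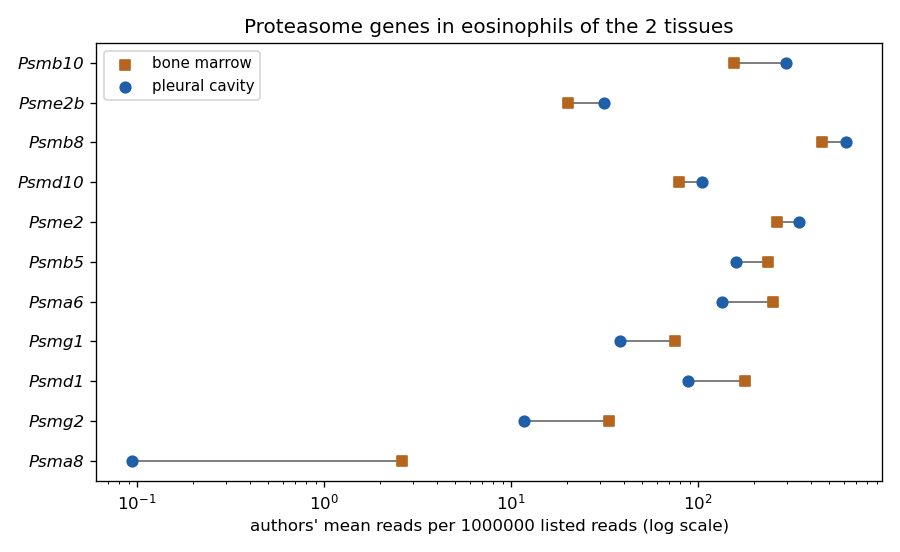
For the 11 listed proteasome genes (y axis), the authors' mean reads per 1000000 listed reads are shown on a log scale (x axis) in bone marrow (squares) and pleural cavity (circles) eosinophils, with 1 value per tissue and no error. Psmb10, Psme2b, Psmb8, Psmd10 and Psme2 lie to the right in the pleural cavity, although Psmb8, Psmd10 and Psme2 are at -0.01, -0.04 and -0.05 on the log2 scale with the abundant-gene reference, and the other genes lie to the left, although Psmb5 is at 0.13 with median of ratios factors.

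Genes that encode ubiquitin itself were looked up among the related genes outside the rule. Rps27a, which encodes ubiquitin fused to a ribosomal protein, had 5829.5 mean reads in the pleural cavity and 8794.5 in the bone marrow (log2 -1.03). Ubb, a stress-responsive gene of repeated ubiquitin units, went the other way with 122838 and 62479 mean reads (log2 0.54), its reads being fractional. No gene of the 6 E1 enzymes matched by the rule was listed, and neither was any of the 3 Ube3 ligases or the 6 ubiquilins.

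Of 37 annotated Ube2 genes 14 were listed (37.8%), 9 higher and 5 lower, or 8 and 6 with the abundant-gene reference. The lower ones included the E2 enzymes of cell division. Ube2c (chr2:164769898-164778822, plus strand), which starts ubiquitin chains for the anaphase-promoting complex, had 61.7 mean reads in the pleural cavity and 2988 in the bone marrow (log2 -6.01). Ube2s, which extends those chains, had 137 and 321.5 (log2 -1.66). Ube2t, the E2 enzyme of the Fanconi anemia pathway, had 35.5 and 256.5 (log2 -3.26). Each was lower with all scalings tried, and they stood beside the dividing cell markers, whose part was not tested. Ube2cbp, an E3 ligase that the symbol rule places here, had 3 and 28.5 mean reads and was 12.9-fold lower (exact 95% interval 5.57 to 36.6, counting error only).

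The higher E2 genes differed less. Ube2d1, of the broadly acting Ube2d family, had 796.5 mean reads in the pleural cavity and 265 in the bone marrow (log2 1.14), the only one of them past 2-fold. Its ratio to the family member Ube2d2a, per kilobase, was 0.372 in the bone marrow and 0.596 in the pleural cavity. Ube2j1, an E2 enzyme of the endoplasmic reticulum, had 1856 and 905 (log2 0.60). Ube2b, a partner of ligases in DNA damage tolerance, had 3578 and 1783.5 (log2 0.56). Ube2l3, which serves the linear ubiquitin ligase, had the most reads of the group in both tissues, 5588 and 3531 (log2 0.22, and -0.22 with the abundant-gene reference).

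Cullin ligases that use F-box proteins as receptors were represented by Cul1 and 16 of 77 annotated F-box genes (20.8%), of which 11 were higher and 5 lower, or 12 and 4 with median of ratios factors. Cul1, their scaffold and the only listed gene of 8 cullins, had 3237 mean reads in the pleural cavity and 1384 in the bone marrow (log2 0.79). Fbxw7, which targets cyclin E and Myc and was the only listed gene of 23 Fbxw genes (4.35%), had 840.5 and 377.5 (log2 0.71). Fbxl5, the iron sensor that removes an iron regulatory protein, had 3054.5 and 1015.5 (log2 1.15). Of 18 annotated Fbxl genes 6 were listed (33.3%), 4 higher and 2 lower. Fbxl12 had log2 0.86 (788 and 319.9) and Fbxl20 log2 0.53 (1533 and 784.5).

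Of 36 annotated Fbxo genes 9 were listed (25.0%), 6 higher and 3 lower, or 7 and 2 with median of ratios factors. Fbxo32, known as atrogin-1 from muscle wasting, had 261 mean reads in the pleural cavity and 79.0 in the bone marrow (log2 1.27). Fbxo25, Fbxo8 and Fbxo38 had log2 differences of 0.92, 0.70 and 0.47. The lower genes were led by Fbxo10, at 5.5 and 107.5 mean reads (log2 -4.50). Fbxo5, the inhibitor of the anaphase-promoting complex in interphase, had 92.7 and 709 (log2 -3.36). Fbxo3 had 1491 and 1736 (log2 -0.66, and 0.03 with median of ratios factors).

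The Trim genes, RING-type ligases and their relatives, held the largest difference upward. Of 68 annotated genes 18 were listed (26.5%), 11 higher and 7 lower, or 9 and 9 with the abundant-gene reference. Trim47 (chr11:116105752-116127210, minus strand) had 1690.5 mean reads in the pleural cavity and 35.5 in the bone marrow (log2 5.10), the largest of all members. Its gene model overlaps that of Trim65 on the same strand, and Trim65 had 444 and 140.5 (log2 1.21). Reads of the overlap cannot be assigned with certainty. Per kilobase, the ratio of Trim47 to Trim25 was 0.0564 in the bone marrow and 1.56 in the pleural cavity.

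Other higher Trim genes differed less. Trim34a, an interferon-inducible gene, had 1571.5 mean reads in the pleural cavity and 420.2 in the bone marrow (log2 1.46). Trim14, an adaptor in antiviral signaling, had 4135 and 1856 (log2 0.72). Trim25, which activates the RNA sensor RIG-I, had 2753 and 1596 (log2 0.35, and -0.10 with the abundant-gene reference). Trim46, known from neuronal microtubules, had fewer reads, 205.5 and 50 (log2 1.58).

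The lower Trim genes with at least 50 mean reads were led by Trim45, with 111.5 in the pleural cavity and 664.5 in the bone marrow (log2 -3.00). Trim59 had 147 and 510.5 (log2 -2.23). Trim37, which limits centrosome assembly, had 211.5 and 647 (log2 -2.05). All of them were lower with each scaling tried.

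Of 21 listed deubiquitinases 14 were higher and 7 lower, or 11 and 10 with the abundant-gene reference, and 1 of the higher genes stood far from the other higher ones. Of 12 annotated Otu genes 7 were listed (58.3%), 5 higher and 2 lower, or 4 and 3 with the abundant-gene reference. Otub2 (chr12:103388682-103406350, plus strand) had 1788.5 mean reads in the pleural cavity and 122.5 in the bone marrow (log2 3.42). Its relative Otub1, which also blocks E2 enzymes, had 4249.5 and 2509 (log2 0.32, and -0.12 with the abundant-gene reference). Otub1 remained the more abundant gene, but the ratio of Otub2 to Otub1 per kilobase was 0.0261 in the bone marrow and 0.225 in the pleural cavity, a factor of 8.62.

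Among the other Otu genes, Otud1 had 172.5 and 38.5 mean reads (log2 1.70). Otud7b, which trims K11-linked chains, had 566 and 263.5 (log2 0.66). Otud5 had 1582 and 811 (log2 0.52). Otulinl, a relative of the linear chain deubiquitinase Otulin without its activity, was the lower gene of the family with more than 0 reads, at 102.5 and 460.5 (log2 -2.60).

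Of 55 annotated Usp genes 14 were listed (25.5%), 9 higher and 5 lower, or 7 and 7 with the abundant-gene reference. Usp3, which acts on ubiquitinated histones, had 8087 mean reads in the pleural cavity and 2628 in the bone marrow (log2 1.18). Usp22, the deubiquitinase of the SAGA coactivator, had 2856 and 978 (log2 1.11). These were the Usp genes higher by over 2-fold. Usp42 had 411.5 and 176 (log2 0.78), and Usp4 6044.5 and 3059 (log2 0.54). On the lower side, Usp11 had 185.5 and 676.5 (log2 -2.30), Usp2, a gene under circadian control, 128 and 384.5 (log2 -2.02), and Usp46 290.5 and 818.5 (log2 -1.93).

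A further group of lower members rested on very few reads. Listed at 0 in the pleural cavity were 6 members (7.23%), beside 12.0% of all listed genes, and a floor of 3 mean reads per library gives bounds for them. The bounds hold for scaling to the sums of listed reads. With median of ratios factors, whose log2 offset lies at -0.69 from that of the sums, each bound is smaller. Trim66 had 31.5 mean reads in the bone marrow and was at least 14.2-fold lower. Trim67 with 19.5 was at least 8.81-fold lower, and Otud7a with 18 at least 8.13-fold lower. The bounds were smaller for Fbxl7 (13.5 mean reads, at least 6.10-fold lower), Usp26 (13, at least 5.88-fold) and Fbxl13 (11, at least 4.97-fold). Such members were found in 1 direction only, since no member had 3 or fewer mean reads in the bone marrow. The median over all members does not depend on these values, since at their bounds the 6 members still lie below it. Psmc3ip, a meiotic recombination factor that the rule takes by its symbol, had 25.5 and 221 mean reads (log2 -3.51).

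Other genes of the pathway, from a list that the symbol rule does not cover, also went both ways. Of 83 such genes 29 were listed, 18 higher and 11 lower (62.1% higher, beside 42.5% of all listed genes). Past 2-fold were 2 and 7 of them, beside 16.0% and 50.5% of all listed genes. The split of 18 and 11 became 21 and 8 with median of ratios factors and 12 and 17 with the abundant-gene reference. Cdc20, the activator of the anaphase-promoting complex in mitosis, had 73 mean reads in the pleural cavity and 2857 in the bone marrow (log2 -5.71). Skp2, an F-box protein that promotes entry into S phase, had 20 and 295 (log2 -4.26). Nedd4, a HECT ligase, had 1233.5 and 3449.5 (log2 -1.92). With the sums of listed reads, the genes higher by over 2-fold were Usp18 and Birc3. Usp18, which removes the ubiquitin-like protein Isg15, had 1581 and 329.5 (log2 1.82). The gene Isg15 itself was not listed. Birc3, a ligase of the TNF receptor pathway, had 6727 and 2093 (log2 1.24, fractional). With median of ratios factors more genes passed 2-fold, such as Anapc2 (log2 1.60) and Rbx1 (log2 1.33). With the abundant-gene reference Usp18 still passed it (log2 1.38) and Birc3 did not (log2 0.80). Of 19 cullin ligase partners 8 were listed, 5 higher and 3 lower, or 6 and 2 with median of ratios factors and 3 and 5 with the abundant-gene reference. Rbx1 (log2 0.64) and Nedd8 (log2 0.61) were higher, whereas Skp1, which joins Cul1 to F-box proteins, was at -0.57 (2423 and 2662 mean reads, fractional) and at 0.12 with median of ratios factors.

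The higher and lower members differed in read number, as all listed genes did. The median over the 51 higher members was 1671.5 mean reads in the pleural cavity and 784.5 in the bone marrow, against 132.5 and 578.75 over the 32 lower members. Over all listed genes it was 1984.25 and 841 for the higher ones and 45.5 and 268.965 for the lower ones. Together the 83 members took 0.815% of the listed reads in the pleural cavity and 0.701% in the bone marrow. Reads were fractional for 22 members (26.5%), beside 25.8% of all listed genes, and those members are uncertain. They were 18 of the 51 higher members (35.3%, beside 22.1% of all higher genes) and 4 of the 32 lower members (12.5%, beside 28.5% of all lower genes). Among the genes named above these are Psme2, Psme2b, Ube2c, Fbxo5, Fbxo3, Fbxo25, Fbxo32, Fbxl12, Trim14, Trim34a, Trim65, Usp3, Usp4, Usp22 and Otud7b. Another protein-coding gene overlaps 23 members, 6 of them on the same strand, among them Psmd1, Ube2c, Ube2s, Ube2l3, Fbxl5 and Trim46, and these are uncertain too since counting by strand is not stated.

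Promoter windows were searched because several higher members are known interferon-inducible genes. RefSeq windows of 250 bases before to 50 after a gene's start (GRCm38.p6) were matched for 64 of the 83 members, as 82 windows. The RefSeq start can lie away from that of the gene model whose coordinates are given above, and among the matches shown it lies 334 bases inside the model for Cul1 and 474 bases inside for Psmb8. The core of the interferon-stimulated response element, GAAA, any 2 bases and GAAA again on either strand, was in 5 of the 82 windows (6.10%). It was in 3.44% of all 32851 windows and in 3.55% of those of listed genes. None of the 11 windows of proteasome genes held this core. The 5 windows with it were among the 52 of higher members, and none was among the 30 of lower members. They belonged to Cul1, Trim26 (902.5 and 287.5 mean reads, log2 1.21), Trim34a and, with 2 windows, Trim30a (2057 and 875, log2 0.79, fractional). Trim26 and Trim30a are named for this match, and a further match in the window of Trim26 overlaps the one shown. The matches are shown with 10 bases on each side, capitals marking the searched letters, 5′ to 3′ on the strand of the gene: Cul1 at chr6:47453489-47453518 (plus strand), Trim26 at chr17:36836976-36837005 (plus), Trim34a at chr7:104244457-104244486 (plus) and Trim30a at chr7:104465210-104465239 (minus).
Cul1: catatacagtGAAAGTGAAAaaaggctctc
Trim26: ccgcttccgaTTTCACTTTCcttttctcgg
Trim34a: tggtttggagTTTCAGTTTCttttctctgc
Trim30a: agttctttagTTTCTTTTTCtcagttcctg

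The core of the interferon gamma activated site, TTCNNNGAA and the same on both strands, was in 8 of the 82 windows (9.76%). It was in 8.30% of all windows and in 7.07% of those of listed genes. Of the members' windows, 3 of the 52 of higher members (5.77%) and 5 of the 30 of lower members (16.7%) held it. Among proteasome genes it was in the window of Psmg1, which was lower, and in that of Psmb8, at chr17:34198088-34198116 on the plus strand. The core of the antioxidant response element, TGACNNNGC on either strand, was in 11 of the 82 windows (13.4%). It was in 12.4% of all windows and in 13.1% of those of listed genes. Of the members' windows, 6 of the 52 of higher members (11.5%) and 5 of the 30 of lower members (16.7%) held it. It was found for Psmb5, at chr14:54618024-54618052 on the minus strand. The pair is shown in the same way because these subunits take each other's place in the core. A match is a description of letters and neither a bound site nor a cause.
Psmb8: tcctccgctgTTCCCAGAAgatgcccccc
Psmb5: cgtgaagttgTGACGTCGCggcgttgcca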

How the data were processed

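Eosinophils of 2 tissues were sequenced as paired reads of 100 bp, in 2 libraries per tissue, and grouped by tissue from their labels. The authors trimmed the reads, used HISAT2 2.1.0 on GRCm38, Bowtie2 2.2.5 for mapping to genes and RSEM 1.2.8 for estimating reads, and compared the tissues with DESeq2 (the submitters' processing notes also name StringTie 1.0.4). The deposited values used are expected counts, which the authors gave as 1 mean per tissue without scaling for depth. The deposited q-value column of the authors was read only to test that all 5807 listed genes lie under 0.05. The columns of log2 fold changes and p-values from the authors' comparison were not used. The depth of each library is unknown, and the precision is that of a mean with no spread.

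Log2 differences used a pseudocount of 1 mean read, and the script for them was tested on simulated data. Exact intervals are Clopper-Pearson intervals on reads summed over libraries, and bounds use 3 mean reads per library. With means only, the count test planned for values per library could not be used. All 83 members matched GENCODE M21 by Ensembl identifier (5656 of the listed genes did), and lengths are those of the longest transcript.

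Older symbols of a gene already in a list were merged through the RefSeq synonyms. Members, roles and lists were chosen with earlier results of these data known. Genes were named by a rule: all listed subunits of the immunoproteasome, catalytic core, activators, chaperones and E1 enzymes. In each other role, up to 3 members with the largest differences in each direction and at least 50 mean reads in a tissue were named, with the 2 with most reads. The pairs of genes set against each other, Trim65, Trim26, Trim30a, and the related and marker genes shown were chosen after their values were seen. A few members and markers that the rules name are not reported here singly. Alternatives covered the scaling (TMM from edgeR 4.0.16, among others), read filters, fractional members, the pseudocount and the fold threshold. Scripts ran in R 4.3.3 and Python 3.11.15 with scipy 1.17.1, numpy 2.4.6, pandas 2.3.3 and matplotlib 3.10.9.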

Additional observations from a re-analysis of the deposited data

How the results depend on the processing

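The count of members higher by over 2-fold was 29 without scaling, 50 with median of ratios factors, 5 with the abundant-gene reference (chosen after seeing the data), 7 without members with fractional reads, 28 at a threshold of 1.5-fold and 2 at 4-fold. The count lower by over 2-fold was 15 both with at least 50 mean reads in a tissue and with more than 3 mean reads in both tissues, since members near 0 then drop out. A scaling adds 1 constant to every log2 difference, so the medians moved with it. For the proteasome genes the median was -0.12 without scaling, -0.37 with TMM factors, 0.13 with median of ratios factors, -0.75 with the 20 most abundant genes left out of the sums, -1.01 with the abundant-gene reference, -0.083 with either read filter and -0.90 without fractional members. For the members outside the proteasome it was 0.91, 0.66, 1.16, 0.28 and 0.025 with these scalings in the same order. For all members it was 0.89, 0.64, 1.14, 0.27 and 0.0096, and 0.35 without fractional members. Among the members named, the direction turned with median of ratios factors for Psmb5 (0.13) and Fbxo3 (0.032). With the abundant-gene reference it turned for Psmb8 (-0.0070), Psmd10 (-0.035), Psme2 (-0.047), Ube2l3 (-0.22), Trim25 (-0.10) and Otub1 (-0.12). Of the members for which these alternatives were run, those chosen by the rule for named genes, no other changed direction with a scaling or with a pseudocount of 3 mean reads. They were not run singly for Ube2cbp, the genes at 0, Trim26, Trim30a, Trim65 or the marker genes. Which scaling is closest to the cells' RNA content was not tested. No paired analysis was possible because the mean columns carry no replicate numbers, and leaving out each library was not run for the same reason. Few reads limit the members near 0, for which only a bound or a wide interval can be given.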
